A study of Mus musculus with 2 samples.

Results

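Cadherins and protocadherins were examined in brain from wild type and Plzf lu/lu (luxoid) mouse embryos. The genes were taken by name: every numbered cadherin on the array other than Cdh1 and Cdh5, every numbered protocadherin, and every variable or C-type member of the alpha, beta and gamma protocadherin clusters. This gave 68 of the 37074 gene names, 21 cadherins and 47 protocadherins, measured by 121 probes. RNA came from brain of embryos at E10.5, taken as forebrain and midbrain according to the methods, and was hybridized to 2 Agilent arrays with 2 dyes each. On both arrays the wild type sample (C57BL/6) carried Cy3 and the Plzf lu/lu sample carried Cy5, so every ratio sets 1 luxoid sample against 1 control sample and a dye effect on a probe cannot be told apart from the genotype. Luxoid mice carry a spontaneous single-base mutation in the first coding exon of Plzf (Zbtb16), which leaves a truncated protein. The labels give luxoid itself as the strain of the Cy5 channel. Any difference of strain background thus cannot be told apart from the genotype either. The labels call the 2 arrays biological replicates, the number of embryos behind each is not given in the sources used here, and both arrays lay on 1 slide.

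Cadherins are transmembrane proteins whose repeated extracellular domains bind calcium and hold neighboring cells together. Classical cadherins (types I and II) bind their like on the next cell and are anchored inside the cell by catenins to actin. In the neural tube they keep the neuroepithelium joined at its apical side, and the set of cadherins a cell expresses helps to separate brain regions. Protocadherins have related extracellular domains but do not bind the classical catenins. The non-clustered protocadherins are single genes, whereas each neuron chooses its own few members from the alpha, beta and gamma clusters, whose promoters are selected with the help of CTCF and cohesin.

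Plzf itself was checked first. The Zbtb16 signal was 433 in wild type and 172 in Plzf lu/lu on array 1, and 546 and 211 on array 2. Zbtb16 was thus lower in Plzf lu/lu on both arrays, with log2 ratios of -1.33 and -1.37, although its Plzf lu/lu signal on array 1 was below the filter used for testing. The labels of the channels therefore match the gene.

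Most of the clustered protocadherins were dim in this tissue, whereas the classical type I cadherins and the non-clustered protocadherins were nearly all detected. A probe was called well above background by the scanner software's own flag, and a gene passed the signal filter when its brightest probe had a processed signal above 200 that was at least 5 times the noise of the local background in all 4 channels. Of the 68 genes, 11 passed the filter, 22 more were well above background in all 4 channels, 22 were so in 1 to 3 channels and 13 in none. All 4 type I cadherins (Cdh2, Cdh3, Cdh4 and Cdh15) and 10 of 11 non-clustered protocadherins were well above background in every channel, the exception being Pcdh15. For type II cadherins this number was 6 of 12. It was 4 of 7 for the alpha cluster, 5 of 22 for the beta cluster and 1 of 7 for the gamma cluster. These counts cover only the cluster genes that the array names, which do not include, for example, Pcdha7 and Pcdhga6.

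**Figure D1:**
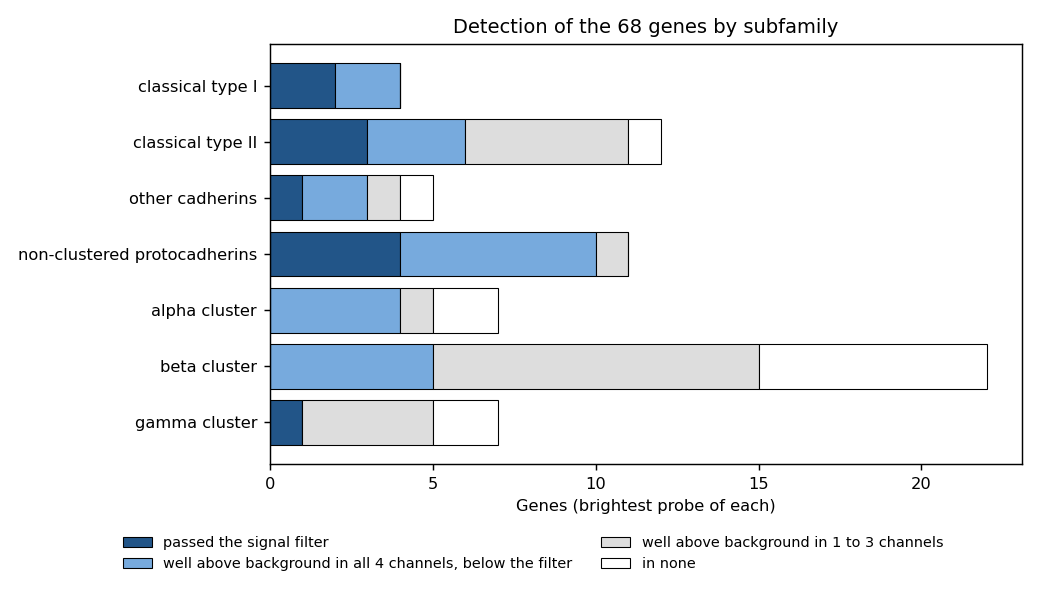
Number of genes (horizontal axis) in each subfamily, split by whether the brightest probe of the gene passed the signal filter, was well above background in all 4 channels without passing, in 1 to 3 channels, or in none. The filter was passed by 10 genes outside the clusters and by 1 clustered gene name, Pcdhga9.

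Cdh2 and Cdh3, both type I cadherins, were the members that passed the filter and were higher in Plzf lu/lu beyond 1.3-fold on both arrays, and no member that passed was lower beyond 1.3-fold on both. Over the 10600 genes that passed, 2.58% were higher by this rule (274 genes) and 0.736% were lower (78 genes). With 11 members, 2 higher is a small count, and the members were not tested as a set. The log2 ratios of the 2 arrays were also fitted with limma across all 10600 genes with Benjamini-Hochberg adjustment. No member had an adjusted p below 0.05, against 0.0283% of all genes (3 genes). At an unadjusted p below 0.05 there were 4 members (Cdh2, Cdh3, Cdh6 and Pcdh19), against 27.8% of all genes. With 2 arrays an exact test of a single gene cannot go below p = 0.5, so limma's test rests on the variance pooled over genes.

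Cdh2 encodes N-cadherin, the main adherens junction protein of the neuroepithelium. Its signal was 2899 in wild type and 4405 in Plzf lu/lu on array 1, and 3424 and 4655 on array 2. Both Plzf lu/lu values lay above both wild type values. The log2 ratios were 0.60 and 0.44, with a mean of 0.52 ± 0.11 (SD, n = 2 arrays) and a limma adjusted p of 0.0518. A second Cdh2 probe, for which no RefSeq transcript is listed, was dim, at 20.4 and 12.7 on array 1 and 18.9 and 17.4 on array 2, and it pointed the other way.

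Cdh3 encodes P-cadherin, which is found in surface ectoderm and other epithelia. Its signal was 239.9 in wild type and 603 in Plzf lu/lu on array 1, and 332 and 434 on array 2. The genotypes did not overlap, but the log2 ratio was 1.33 on array 1 and 0.39 on array 2 (mean 0.86 ± 0.67 SD, n = 2, limma adjusted p = 0.087). The ratio on array 2 was 1.31, just beyond the threshold, and it was 1.27 once the trend of the ratios on the GC content of the probes was removed. The 60-base Cdh3 probe lies at chr8:109079933-109079992 on the plus strand of mm9 and has a GC content of 36.7%. Its first 30 bases are shown because the call rests on this single probe.
Cdh3 probe: tattttccctgttatgtgctgtagatggag

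The array on which Cdh3 differed most was also the array on which the summed signal of epithelial markers was higher in Plzf lu/lu. Over 10 surface ectoderm markers, which include Cdh1 (E-cadherin), the summed signal was 9130 in wild type and 13500 in Plzf lu/lu on array 1, but 12780 and 10110 on array 2. All 10 were well above background in every channel, and none of the 7 that passed the filter was beyond 1.3-fold in 1 direction on both arrays. The bright Krt18 (4696 and 7581 on array 1) and Krt8 (2233 and 3066) weigh most in the sum. The markers did not all move together: Krt14 (log2 ratios -0.01 and 0.53), Krt5 (0.20 and 0.29) and Trp63 (0.03 and 0.16) had the larger ratio on array 2. Cdh1 was 254 and 546 on array 1, and 391 and 346 on array 2. Thus Cdh3 was higher on both arrays while Cdh1 was higher on array 1 only, and the part of ectoderm in the Cdh3 ratio was not tested. In bulk tissue, fewer cells of a type and less RNA per cell cannot be told apart.

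**Figure D2:**
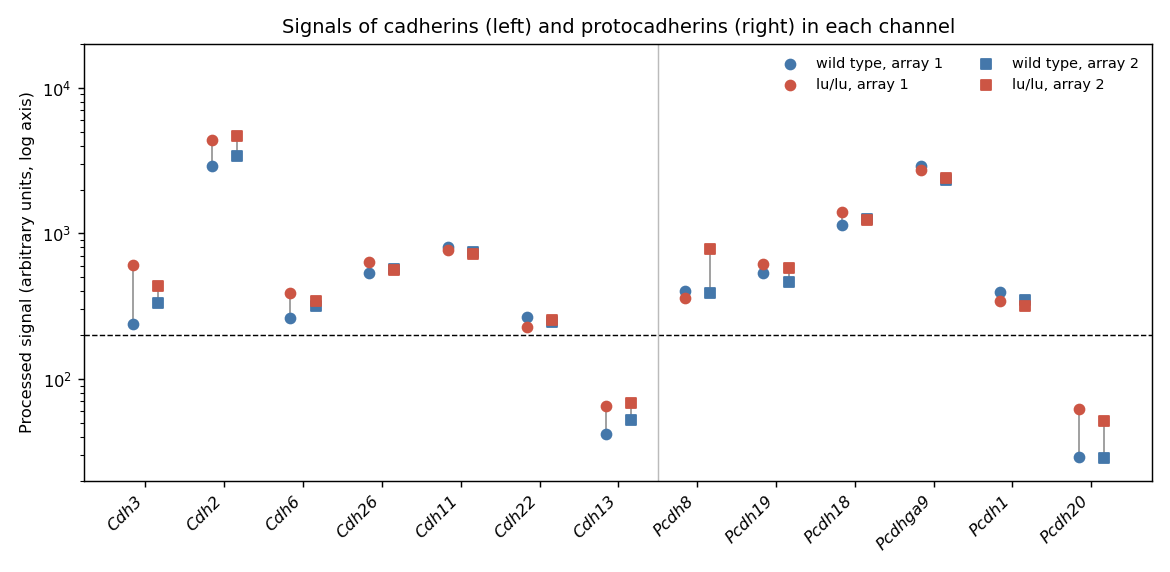
Processed signal (log axis, arbitrary units) of the 11 members that passed the filter and of Cdh13 and Pcdh20, in wild type (blue) and Plzf lu/lu (red), with array 1 as circles and array 2 as squares; gray lines join the samples of 1 array and the dashed line marks a signal of 200. The red symbols lie above the blue ones on both arrays for Cdh2, Cdh3, Cdh6, Pcdh19, Cdh13 and Pcdh20, whereas Pcdh8 is separated on array 2 only.

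The remaining type I cadherins did not pass the filter. Cdh4 (R-cadherin), which marks regions of the forebrain, was 170 in wild type and 131 in Plzf lu/lu on array 1, and 132 and 178 on array 2. The arrays thus gave opposite signs for its brightest probe. Its dimmer probe was higher in Plzf lu/lu on both, with log2 ratios of 0.37 and 0.95. Cdh15 (M-cadherin, known from muscle) had log2 ratios of 0.20 and -0.11.

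The 3 type II cadherins that passed the filter showed no shared direction. Cdh6, which is expressed in parts of the early forebrain and in neural crest, was 262 in wild type and 392 in Plzf lu/lu on array 1, and 318 and 344 on array 2. It was higher on both arrays, with log2 ratios of 0.58 and 0.11 and a limma adjusted p of 0.148, but beyond 1.3-fold on array 1 only. Cdh11, a cadherin of mesenchyme, was 806 and 763 on array 1, and 749 and 720.2 on array 2, giving log2 ratios of -0.08 and -0.06. The brightest Cdh11 probe is also annotated to the transcripts 2610005L07Rik and 6820431F20Rik, so its signal may be shared, while a second probe listed for Cdh11 alone gave -0.25 and -0.06. Cdh22 was 267 and 229 on array 1, and 247 and 255 on array 2, and its log2 ratios were -0.23 and 0.05.

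Among the dimmer type II genes, Cdh8, Cdh12 and Cdh20 were well above background in every channel. Each had a higher signal in Plzf lu/lu on both arrays, with log2 ratios of 0.29 and 0.11 for Cdh8, 0.25 and 0.27 for Cdh12, and 0.80 and 0.26 for Cdh20. None was beyond 1.3-fold on both. The signals behind these ratios were low, between 38.2 and 118. Cdh7, Cdh9, Cdh10, Cdh18 and Cdh24 reached the background flag in 1 to 3 channels and Cdh19, a marker of Schwann cell precursors, in none, so their ratios are not read.

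Type II cadherins are similar in sequence, and the probes were therefore compared with each other. Of 7159 pairs of probes from different members, none shared a run of 20 bases. The closest pair was a second Cdh6 probe at chr15:12963981-12964040 (minus strand, mm9) and the Cdh9 probe at chr15:16785915-16785974 (plus strand), shown here with the 10 bases that differ in capitals; the other 50 bases are the same at each position.
Cdh6 second probe: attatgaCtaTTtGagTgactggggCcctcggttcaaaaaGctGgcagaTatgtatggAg
Cdh9 probe: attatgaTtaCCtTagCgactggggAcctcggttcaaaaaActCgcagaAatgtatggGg

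Both sequences can be read without a stop codon in 1 frame, and in that frame 9 of the 10 differences fall on the last base of a codon. The second Cdh6 probe had signals of 134.5 in wild type and 161 in Plzf lu/lu on array 1, and 151 and 136 on array 2. The Cdh9 probe gave 13.1 and 5.44, and 9.12 and 4.42, and was well above background in 2 of 4 channels. The brightest Cdh6 probe, which carries the values given above, lies elsewhere, at chr15:12958580-12958639.

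Of the other cadherins, Cdh13 was the one beyond 1.3-fold on both arrays. Cdh13 (T-cadherin) is held to the membrane by a lipid anchor and has no cytoplasmic tail for catenins. Its signal was 41.5 in wild type and 64.7 in Plzf lu/lu on array 1, and 52.0 and 68.4 on array 2, with log2 ratios of 0.64 and 0.40. It was below the signal filter. In a limma fit over the 23283 genes well above background its adjusted p was 0.252, and over the fits that hold it the adjusted p ran from 0.118 to 0.538. Its mean log2 ratio fell to 0.33 with normexp and loess, where it was no longer beyond 1.3-fold on both arrays, and a second Cdh13 probe gave -0.04 and -0.13. Cdh26 passed the filter, with signals of 530 and 640 on array 1 and 567 and 557 on array 2, and log2 ratios of 0.27 and -0.03. Cdh16, best known from kidney epithelium, had log2 ratios of -0.13 on both arrays.

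The 2 arrays disagreed for Pcdh8. Pcdh8 (paraxial protocadherin) acts in cell movement in the early embryo and at synapses later. Its signal was 402 in wild type and 357 in Plzf lu/lu on array 1, and 388 and 776 on array 2. The Plzf lu/lu sample of array 2 stood apart from the other 3, with log2 ratios of -0.17 and 1.00 (limma adjusted p = 0.336). A second, dimmer Pcdh8 probe separated the same sample, at 131 and 150.2 on array 1 and 129.9 and 344 on array 2. The first 30 bases of both probes are shown because 2 separate targets gave this array difference. They belong to chr14:80166728-80166787 and chr14:80167018-80167077, on the minus strand of mm9.
Pcdh8 brighter probe: aatgtgttggaattgctcattgggatttta
Pcdh8 dimmer probe: ccttaaaatgaagttgttggaagctatttc

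Most neuronal markers also had the larger ratio on array 2, the exception being Isl1 (log2 ratios 0.66 and 0.37). The median log2 ratio of the 9 neuronal markers that passed the filter was 0.14 on array 1 and 0.72 on array 2. The summed signal of all 11, each well above background in every channel, was 8748 in wild type and 9276 in Plzf lu/lu on array 1, and 7906 and 12510 on array 2. Whether neuron number plays a part in the Pcdh8 ratio was not tested.

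Pcdh19, an X-linked protocadherin that binds N-cadherin, was 534 in wild type and 619 in Plzf lu/lu on array 1, and 460 and 582 on array 2. Both Plzf lu/lu signals were above both wild type signals. The log2 ratios were 0.21 and 0.34 (mean 0.28 ± 0.09 SD, n = 2, limma adjusted p = 0.106), and a second probe gave 0.10 and 0.27, so the direction was shared by both probes and both arrays at a size below 1.3-fold.

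Pcdh18 and Pcdh1 also passed the filter and were within 1.3-fold on both arrays. The Pcdh18 signal was 1148 and 1402 on array 1 and 1246 and 1225 on array 2, with log2 ratios of 0.29 and -0.02. Pcdh1, an adhesion protein known from epithelia, was 392 and 345 on array 1 and 346 and 314 on array 2. It was the lone protocadherin that passed with a lower signal in Plzf lu/lu on both arrays, with log2 ratios of -0.18 and -0.14 and a limma adjusted p of 0.225. A much dimmer Pcdh1 probe, with signals between 10.3 and 21.8, gave -0.93 and -0.77.

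Among the protocadherins below the filter but well above background in all 4 channels, Pcdh20 was the one that differed beyond 1.3-fold in 1 direction on both arrays. The array holds 1 probe for it. Its signal was 28.9 in wild type and 61.7 in Plzf lu/lu on array 1, and 28.6 and 51.0 on array 2. The wild type samples were nearly equal and both Plzf lu/lu samples were higher, with log2 ratios of 1.09 and 0.83 (mean 0.96 ± 0.18 SD, n = 2). In the limma fit over the 23283 genes well above background the adjusted p was 0.252. It ran from 0.0666 to 0.506 over the fits that hold this gene, and with normexp and loess, which gave the lowest, the mean log2 ratio was 0.57. The probe lies at chr14:88865447-88865506 on the minus strand of mm9 and begins with the 30 bases below, shown because this probe alone gives the value.
Pcdh20 probe: gctttacttatcaccctcatgtgtctgtac

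Pcdh7, Pcdh9, Pcdh10, Pcdh12 and Pcdh17 were also well above background in every channel and below the filter. Pcdh17 was higher on both arrays, with log2 ratios of 0.27 and 0.58. Pcdh12, a protocadherin of endothelial cells, had log2 ratios of -0.11 and -0.71. Of 10 endothelial markers, 6 were lower beyond 1.3-fold on both arrays and none higher. Over all genes well above background the shares were 2.07% lower and 2.52% higher. The summed signal of these markers was 5499 in wild type and 4581 in Plzf lu/lu on array 1, and 6121 and 4265 on array 2. The part of endothelium in the Pcdh12 ratio was not tested. For Pcdh7, Pcdh9 and Pcdh10, different probes of the same gene had mean log2 ratios of opposite sign.

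**Figure D3:**
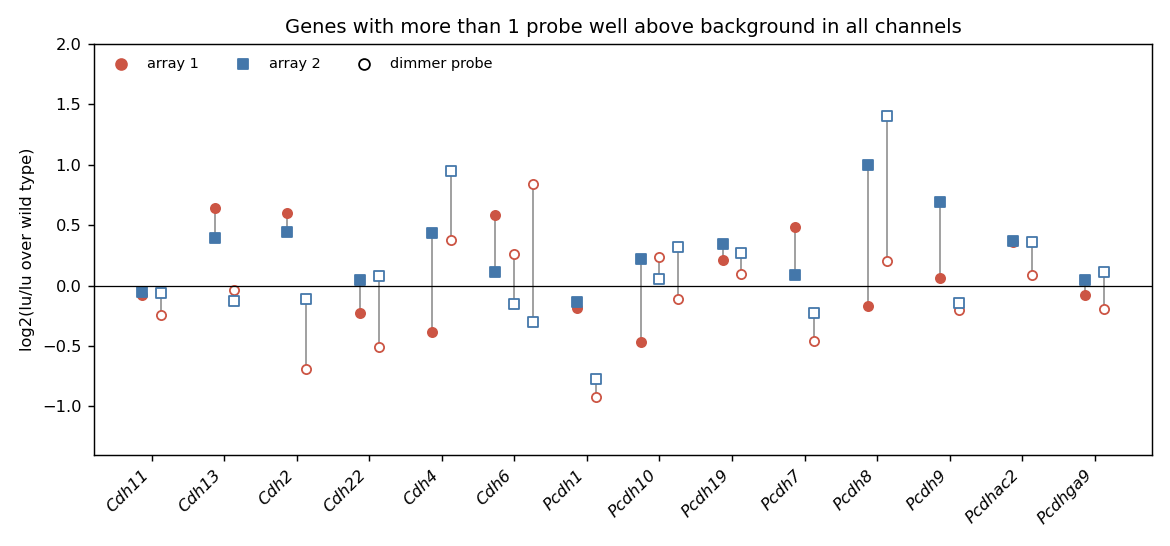
Log2 ratio (Plzf lu/lu over wild type) (vertical axis) for each probe of the 14 members with more than 1 probe well above background in all channels, on array 1 (circles) and array 2 (squares); filled symbols are the brightest probe and open symbols the dimmer ones. The mean ratios of the probes had 1 sign in 9 members and mixed signs in Cdh2, Cdh13, Pcdh7, Pcdh9 and Pcdh10.

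The clustered protocadherins gave little signal that belongs to a single gene. Pcdhga9 passed the filter with signals of 2881 in wild type and 2735 in Plzf lu/lu on array 1, and 2339 and 2417 on array 2. The genotypes overlapped and the log2 ratios were -0.07 and 0.05 (limma adjusted p = 0.921). Both Pcdhga9 probes are annotated to transcripts of Pcdhga1, Pcdhga5 and Pcdhga6 too. Gamma transcripts end in shared constant exons, so this signal is not read as Pcdhga9 alone. None of the other 6 gamma members was well above background in all channels.

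In the alpha cluster, both Pcdhac2 probes are likewise annotated to Pcdha4, Pcdha9 and Pcdhac1. The brighter one was 42.8 in wild type and 54.9 in Plzf lu/lu on array 1, and 48.8 and 63.1 on array 2, and its log2 ratios of 0.36 and 0.37 fell just short of 1.3-fold on each array. The Pcdha8 probe, which is also listed for Pcdha7, gave 0.47 and 0.16. Pcdha9 and Pcdhac1 each had opposite signs on the arrays. In the beta cluster, whose members are single-exon genes without shared exons, the 5 members well above background (Pcdhb1, Pcdhb3, Pcdhb7, Pcdhb12 and Pcdhb18) had signals between 9.05 and 143. Pcdhb3 and Pcdhb18 were higher in Plzf lu/lu on both arrays and the others had mixed signs. None of the 10 clustered members well above background in all channels was beyond 1.3-fold in 1 direction on both arrays.

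All cadherins, and then the classical cadherins alone, were set beside the protocadherins. Among the members that passed, the median log2 ratio of the 6 cadherins was 0.43 on array 1 and 0.08 on array 2. That of the 5 protocadherins was -0.075 and 0.047, which on each array is the ratio of Pcdhga9, whose probe is shared. The median over all 10600 genes was 0.0195 on array 1 and -0.0047 on array 2. The cadherin median was thus above the protocadherin median by 0.50 on array 1 and by 0.03 on array 2. The medians of the mean ratios were 0.23 for the cadherins and 0.13 for the protocadherins, a difference of 0.10. For the 5 classical cadherins that passed, without Cdh26, the medians were 0.58 and 0.11, and the difference from the protocadherins in the mean ratios was 0.21. Among the members well above background in all 4 channels, the medians of the mean ratios were 0.20 for 13 cadherins and 0.24 for 20 protocadherins, so the protocadherins were slightly above. On array 1 the cadherins were above under this filter too (0.27 against 0.06), whereas on array 2 they were below (0.11 against 0.19). The 10 classical cadherins of this set had medians of 0.27 and 0.19, and differed from the protocadherins by -0.01 in the mean ratios. The order on array 1 thus held under both filters, and that on array 2 and in the mean ratios did not.

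With that wider set of 33 members, ratios above 0 were more frequent than below it. 16 members were higher in Plzf lu/lu on both arrays and 4 were lower on both, whereas over the 23283 genes well above background in all channels 7788 were higher and 7732 lower. The median of the mean log2 ratios was 0.21 for the members and 0.0018 for all such genes. By the 1.3-fold rule on both arrays 4 members were higher (Cdh2, Cdh3, Cdh13 and Pcdh20) and 0 lower, against 2.52% and 2.07% of all such genes. The count higher was 3 with the GC trend removed, where Cdh3 was lost, against 2.17% of all such genes. It was 3 with normexp and loess, where Cdh13 was lost, against 1.69%. The count lower was 0 in both settings, against 2.06% and 0.588%. The median probe GC content was 43.3% for these members and 43.3% for all such genes. With the GC trend removed the median of the members was 0.20, with 17 higher and 2 lower on both arrays. After normexp background correction and loess it was 0.14, with 18 higher and 4 lower. The median of all such genes was 0.0067 and 0.0115 in these settings, for which the signs of all such genes were not counted.

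**Figure D4:**
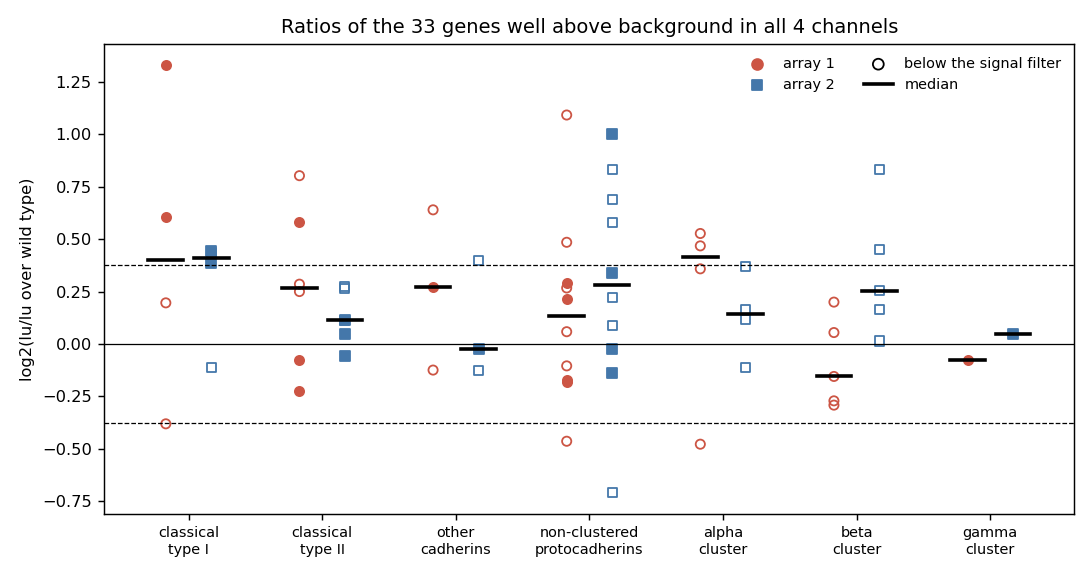
Log2 ratio (Plzf lu/lu over wild type) (vertical axis) of the 33 members well above background in all 4 channels, by subfamily, on array 1 (red circles) and array 2 (blue squares); filled symbols passed the signal filter, black bars are medians and dashed lines mark 1.3-fold. The median of the 4 type I cadherins was 0.40 on array 1 and 0.41 on array 2, but it rests on different genes. Cdh2 and Cdh3 were higher on both arrays, while Cdh4 and Cdh15 changed sign, and the median of the mean ratios was 0.28. The medians of the beta cluster, -0.16 and 0.25, had opposite signs.

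Among the partners of cadherins, beta-catenin was higher beyond 1.3-fold on both arrays. Ctnnb1, which encodes beta-catenin, the protein that binds the tail of classical cadherins and also carries Wnt signals, was 4273 in wild type and 7170 in Plzf lu/lu on array 1, and 4444 and 6477 on array 2. Its log2 ratios were 0.75 and 0.54 (limma adjusted p = 0.051). Of 11 catenins and linkers on the array, 7 passed the filter, and Ctnnb1 was the 1 beyond 1.3-fold on both arrays, with none lower. Over all 10600 passing genes 2.58% were higher and 0.736% lower, so 1 gene of a short list is a small count. The alpha-catenin gene Ctnna1 was 7497 and 9433 on array 1 and 8208 and 8233 on array 2, and the p120-catenin gene Ctnnd1 had log2 ratios of 0.11 and -0.19.

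The factors that select clustered protocadherin promoters all passed the filter (11 of 11). Smchd1 was the 1 higher beyond 1.3-fold on both arrays, against 2.58% of all passing genes. Smchd1, a chromatin protein that helps to silence the inactive X chromosome and clustered genes, was 2250 in wild type and 3426 in Plzf lu/lu on array 1, and 2421 and 3216 on array 2 (log2 ratios 0.61 and 0.41, limma adjusted p = 0.055). Ctcf had log2 ratios of 0.15 and 0.06, the cohesin subunit Rad21 0.47 and 0.21, and the DNA methyltransferase Dnmt3b 0.62 and -0.17. Other lists held no gene that passed the filter and was beyond 1.3-fold on both arrays: 6 passing genes of other cadherin superfamily members (of 21), 6 of the sheddases and gamma-secretase (of 8), 6 of the protocadherin signalling partners (of 10) and 5 of the factors of cadherin switching (of 6). Below the filter and well above background, the calsyntenins Clstn2 and Clstn3 and the WAVE complex subunit Cyfip2 were higher beyond 1.3-fold on both arrays. The log2 ratios were 0.68 and 0.69 for Clstn2, 0.66 and 0.38 for Clstn3, and 0.66 and 0.60 for Cyfip2. By this rule 2.52% of all genes well above background were higher. Dchs2 and Ret (higher) and Foxd3 (lower) were also beyond 1.3-fold on both arrays, but were not well above background in every channel.

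**Figure D5:**
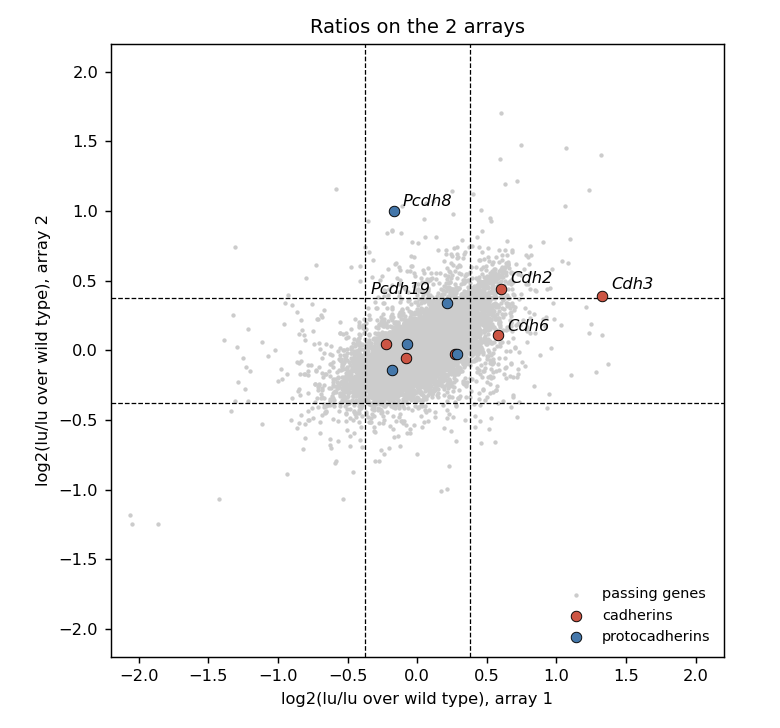
Log2 ratio (Plzf lu/lu over wild type) on array 2 (vertical axis) against array 1 (horizontal axis) for the 10600 genes that passed (gray; 1 gene lies outside the plotted range) with the 6 cadherins in red and the 5 protocadherins in blue; dashed lines mark 1.3-fold. Cdh2 and Cdh3 lie beyond both upper lines, Cdh6 beyond that of array 1 only, and Pcdh8 beyond that of array 2 only.

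The samples also differed in markers of brain regions and of other cell types. Of 8 forebrain markers that passed, 5 were higher beyond 1.3-fold on both arrays (median log2 ratio 0.42 and 0.65). Among 8 neuroepithelial markers that passed, 1 was, Sox2 (medians 0.12 and 0.42). Over all passing genes the shares were 2.58% higher and 0.736% lower. Of 4 midbrain and isthmus markers that passed (medians -0.32 and -0.20), En2 was lower beyond 1.3-fold on both arrays. Its signals were 1917 and 527 on array 1 and 2310 and 974 on array 2. Wnt1 had log2 ratios of -0.60 and -0.21 and Lmx1b of -0.03 and -0.19, whereas Fgf8 was higher on both arrays (0.40 and 0.19). En1 was not well above background in any channel. Erythroid markers had a median of -1.05 on array 1 and 0.10 on array 2, and those of mesenchyme and neural crest 0.07 and -0.07. The part of regional or cell type makeup in the Cdh2, Cdh4 and Cdh6 ratios was not tested.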

How the data were processed

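Per the file headers, the authors read spot intensity with Agilent Feature Extraction 10.7.3.1, with background subtraction and a LOWESS dye normalization on rank-consistent probes, array by array. The deposited files hold processed and raw intensity and a log10 ratio (Cy5 over Cy3), and a second deposited table holds the same ratio on the log2 scale, within 0.005. Probe positions (mm9) were copied from the deposited files.

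Control spots and outlier spots (137 and 126) were removed, repeat spots of a probe were averaged as log2 signals, and a gene name took the values of its brightest probe. The thresholds of the filter (signal above 200 and signal-to-noise ratio of at least 5) and of 1.3-fold follow the methods. The methods apply the filter to spots and do not say that all 4 channels must meet it, as was required here. The paper's list of changed genes is shorter than the count here. It holds Zbtb16, which did not pass the filter here, and no cadherin or protocadherin. Log2 ratios of the 2 arrays were fitted with limma 3.58.1 in R 4.3.3 (intercept, eBayes), with Benjamini-Hochberg adjustment over 10600 genes; the R package data.table (version 1.17.8), Python 3.11.15 and matplotlib 3.10.9 were also used. The fit was tested on simulated data. The arrays were treated as pairs because the 2 channels of an array were hybridized together; the array difference correlated between the genotypes at 0.198 across genes, and the number of arrays limits the precision.

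The members and gene lists were chosen with earlier results of these data known. Named genes are all members that passed, and dimmer members beyond 1.3-fold on both arrays with every spot well above background (up to 5 each way). Zbtb16 and the genes of the partner lists beyond 1.3-fold on both arrays are named too. Marker genes beyond 1.3-fold are not all named. Others are named to account for the members and lists, after their values were seen. The alternatives were normexp (offset 50) with loess or with median centring, the deposited log2 table, other filters, other probe summaries, GC trend removal (lowess, span 0.67), 1.5-fold, eBayes with trend, unpaired channels, and each array alone. The combinations of the background flag with GC removal or with loess, and the medians of classical cadherins alone, were chosen after seeing the data.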

Additional observations from a re-analysis of the deposited data

How the results depend on the processing

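The count of 2 members higher beyond 1.3-fold on both arrays (Cdh2 and Cdh3) stayed at 2 with normexp and loess, with the deposited log2 table, with the filter in 1 channel, with the mean over probes and with single probes. In these settings the share of all genes or probes higher ran from 2.07% to 2.78%. The count of members was 1 with the GC trend removed (Cdh2), against 2.08% of all genes, and 4 among genes well above background, against 2.52%. It was 12 without a filter, 8 with normexp and median centring, against 63.2%, and 0 at 1.5-fold. The count of members lower was 0 except without a filter, where it was 3, and those 3 calls rest on signals near background. Of the 12 higher calls without a filter, those other than Cdh2, Cdh3, Cdh13 and Pcdh20 were also not well above background in every channel. Without a filter, 4.57% of all genes were higher and 5.86% lower. Either array alone gave 3 members higher and 0 lower. The share of all genes was not counted for 1 array alone or at 1.5-fold, so those counts have no background beside them.

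Normexp with median centring moved the median of all passing genes to 0.55, and 63.2% of them were then higher. The median of the cadherins became 0.70 and that of the protocadherins 0.66, all 11 members fell below an adjusted p of 0.05, as did 9644 of 10600 genes, and Cdh11 (0.46), Cdh22 (0.30), Pcdh1 (0.29) and Pcdhga9 (0.61) changed sign. Cdh11, Cdh22 and Pcdh1 stayed below the median of all passing genes in this setting, as in the main fit, and Pcdhga9 lay above it. A sign in this setting is therefore not read as a direction. The Pcdhga9 ratio, near 0, also changed sign with normexp and loess (0.0218, also among genes well above background) and with the GC trend removed (0.0399, in both sets of genes).

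The number of members below an adjusted p of 0.05 was 1 with single probes (Cdh2, adjusted p = 0.0491), where 233 of 13186 probes were called, and 1 with an intensity trend in eBayes (Cdh2, 0.0333), where 393 of 10600 genes were called. It was 0 without the block for the array (unpaired channels), as for all genes. Over the alternatives, the adjusted p of Cdh2 ran from 3.47e-13 with median centring to 0.528 without a filter, and that of Cdh3 from 1.58e-16 to 0.575.

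The median of the protocadherins was 0.24 among genes well above background and 0.23 without a filter. The median with 1 array alone ran from 0.08 to 0.43 for the cadherins and from -0.075 to 0.047 for the protocadherins, and their difference from 0.0336 to 0.50. The difference was -0.04 among genes well above background and -0.10 without a filter. Among genes well above background it was 0.0025 with the GC trend removed and 3e-04 with normexp and loess, so the reversed order did not hold there. With the signal filter and the GC trend removed it was 0.18, and the median of the protocadherins was then 0.0487. The cause of these changes was not tested. Signals below the filter limit what can be said of 57 of the 68 members.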
